A study of Saccharomyces cerevisiae with 18 samples.

Results

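The 10 genes described here are those of de novo pyrimidine synthesis in budding yeast (URA1, URA2, URA3, URA4, URA5, URA6 and URA10), of uracil uptake and salvage (FUR1 and FUR4) and of the pathway's transcription factor (PPR1). They are 10 of the 7126 genes in the deposited expression table, and all 10 were found. They were chosen from values of these libraries, because URA3 was read only in the strain R28P-30B and because URA1 RNA was lower in the total extracts of that strain. URA3 in every library, and the total extract values of these 10 genes in R28P-30B, are therefore given as a description with no test. The translation index of the other 9 genes, and their total extract values in the R28P-30A-labelled libraries against WT, were not among these reasons and were tested. Earlier results of these data were known when the members were chosen, so the tests were not planned blind to them.

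The 18 libraries came from log phase cultures at 30 °C of a wild type (WT) and of the strains R28P-30A and R28P-30B, with 2 cultures a strain. Each culture gave a total extract, a light ribosome fraction and a heavy polyribosome fraction of 4 or more ribosomes per mRNA. WT is a haploid MATa strain of the BY background with ura3Δ0, leu2Δ0, his3Δ200 and lys2Δ0. The study's strain list gives both plasmid strains as rpl7aΔ::URA3 rpl7bΔ::KMX, with a LEU2 plasmid that carries RPL7A cDNA (R28P-30A) or RPL7B cDNA (R28P-30B) behind the RPS28A promoter and before the ADH1 terminator. RPL7A and RPL7B encode the uL30 protein of the large ribosomal subunit. The list names several clones of each plasmid strain, and which clone was sequenced is not given in the sources used here. All 3 strains share the deletion ura3Δ0, which removes the native URA3 gene, and by the strain list URA3 is the marker at the RPL7A locus in the plasmid strains. The labels give the medium both as YC and as synthetic minimal, and the methods list uracil among the components of YC. Libraries held 17373839 to 31525927 reads.

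Uridine monophosphate (UMP), the parent of all pyrimidine nucleotides, is built step by step on an orotate ring. The URA2 protein joins carbamoyl phosphate synthetase and aspartate transcarbamylase and is inhibited by UTP, the end product. URA4 encodes dihydroorotase, URA1 dihydroorotate dehydrogenase, URA5 and URA10 the major and minor orotate phosphoribosyltransferase, and URA3 orotidine monophosphate decarboxylase. URA6 encodes the kinase that turns UMP into UDP. FUR4 is the permease that imports uracil, and FUR1 encodes uracil phosphoribosyltransferase, which turns imported uracil into UMP and so bypasses the de novo route. Ppr1 is a zinc cluster transcription factor that is bound by the intermediates dihydroorotate and orotate and activates genes of the pathway, URA1, URA3 and URA4 among them.

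The sites that carry the letters known for Ppr1 are shown because Ppr1 is the pathway's transcription factor. The letters searched were CGGNNNNNNCCG, which read the same on both strands and are contained in the longer form given after the sites, within 250 bases before to 50 after each start codon. Coordinates are those of the reference genome of the S288C strain (R64), and the letters are the reference's, since the sequenced strains were not read at base level. The URA3 site is that of the native gene, which ura3Δ0 removes in all 3 strains. Whether the URA3 marker carries it was not examined. Each line gives 30 bases, 5′ to 3′ on the strand of the gene, with the CGG and CCG letters in capitals.
URA1 first site, XI:24994-25023, plus strand: tttcttcacCGGgctttgCCGaaggttatt
URA1 second site, XI:25025-25054, plus strand: cacgatcttCGGcattcgCCGaaaattttt
URA4 site, XII:963646-963675, plus strand: ttcatcattCGGagaattCCGatgaatcgg
URA3 site, V:116006-116035, plus strand: tttttgattCGGtaatctCCGagcagaagg
The motif lay in the windows of 3 of the 10 members, and in 75 of 6007 windows of all protein coding genes, or 1.25%. The letters were searched because they are known for a regulator of this pathway, so these counts are a description and no test. URA1 held 2 sites, whose first letters lay 212 and 181 bases before the start codon. With TT before and AA after, as TTCGGNNNNNNCCGAA, the letters were in 1 of the 6007 windows, the second site of URA1. Of 15 related pyrimidine genes, FCY1 and PHM8 held a core match. A match is a run of letters and no evidence of binding, and no match says only that these letters are not in the window.

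URA3 separated R28P-30B from the other strains. The gene lies on chromosome V from 116167 to 116970, plus strand, in the reference. In R28P-30B its total extracts held 9299 and 7549 reads, its light fractions 9364 and 8589, and its heavy fractions 6121 and 6487, 47409 reads in all. The 6 WT libraries held 3 URA3 reads together, with 0 to 2 in each. The 6 libraries labelled R28P-30A held 11, with 0 to 4 in each, although the strain list gives that strain the same URA3 marker as R28P-30B. In the R28P-30B total extracts URA3 stood at 370 and 373 TPM (reads per coding length, with one common total for all libraries), below URA5 and above the other 8 members.

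The R28P-30A-labelled libraries also went against their label at other genes, and they are called by that label with this reservation. Comparisons between the plasmid strains set R28P-30B against these libraries and carry the same reservation. RPL7B, listed as deleted, stood at 217 and 201 CPM (reads brought to one common library total) in their total extracts, against 278 and 272 CPM in WT. Reads of the small nucleolar RNAs snR39 and snR59, which lie in introns of the RPL7 genes, were at 12.3 and 9.90 CPM and at 3.06 and 2.60 CPM, against 0 CPM in both R28P-30B total extracts. LEU2, the plasmid marker, was present in these libraries at 91.9 and 77.1 CPM, at 613 and 639 CPM in R28P-30B and at 0.037 and 0.036 CPM in WT. In results that compare R28P-30B with WT the doubted libraries entered the shared estimate of the spread and the filters on low values that set which genes were tested. The calls for members in the index were the same when only these 2 strains were fitted, over the same genes.

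RNA of URA1, whose enzyme makes orotate, was lower in R28P-30B than in the other strains. URA1 (chromosome XI, 25215 to 26159, plus strand) stood at 544 and 578 TPM in WT total extracts, 586 and 602 TPM in the R28P-30A-labelled libraries, and 239 and 206 TPM in R28P-30B. Both R28P-30B extracts lay below the other 4 by a gap wider than either pair's spread. The difference from WT on the log2(TPM + 1) scale was −1.33, or 2.52-fold lower, the 5th lowest of the 5686 genes measured in that comparison. URA1 was the most abundant member per coding length in WT and the 4th of 10 in R28P-30B. In bulk RNA, fewer cells that express a gene and less RNA per cell cannot be told apart.

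URA4, the dihydroorotase gene one step before URA1 (chromosome XII, 963785 to 964879, plus strand), was also lower in R28P-30B. It stood at 147 and 153 TPM in WT, 156 and 154 TPM in the R28P-30A-labelled libraries, and 101 and 96.3 TPM in R28P-30B. The R28P-30B extracts did not overlap the others, and the difference from WT was −0.60 (log2), the 63rd lowest of 5686 genes. URA2, which encodes the first and regulated step (chromosome X, 165723 to 172367, minus strand), stood at 76.2 and 85.4 TPM in WT, 81.4 and 79.2 TPM in the R28P-30A-labelled libraries, and 70.2 and 71.0 TPM in R28P-30B. Its difference from WT was −0.19 (log2), the 982nd lowest of 5686 genes, where the median gene differed by −0.05. The groups did not overlap, and the share of all genes without overlap was not counted.

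The remaining members kept close to the WT level in R28P-30B total extracts. The differences from WT in log2 were −0.05 for URA5, 0.12 for URA10, −0.11 for URA6, 0.02 for FUR1, −0.03 for FUR4 and 0.02 for PPR1. PPR1 RNA stood at 18.6 and 18.7 TPM in WT, 17.8 and 18.7 TPM in the R28P-30A-labelled libraries, and 19.1 and 18.7 TPM in R28P-30B, and the WT range overlapped that of each other strain. Total extract values of R28P-30B entered the choice of the members. They therefore cannot test a link between the CGG and CCG letters and RNA level, and no such link was tested. The share of URA1 in the summed TPM of URA2, URA4, URA1, URA5 and URA10 was 44.8% and 44.2% in WT, 45.8% and 46.6% in the R28P-30A-labelled libraries, and 27.5% and 24.9% in R28P-30B. The summed level was 1216 and 1310 TPM in WT and 869 and 829 TPM in R28P-30B.

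**Figure D1:**
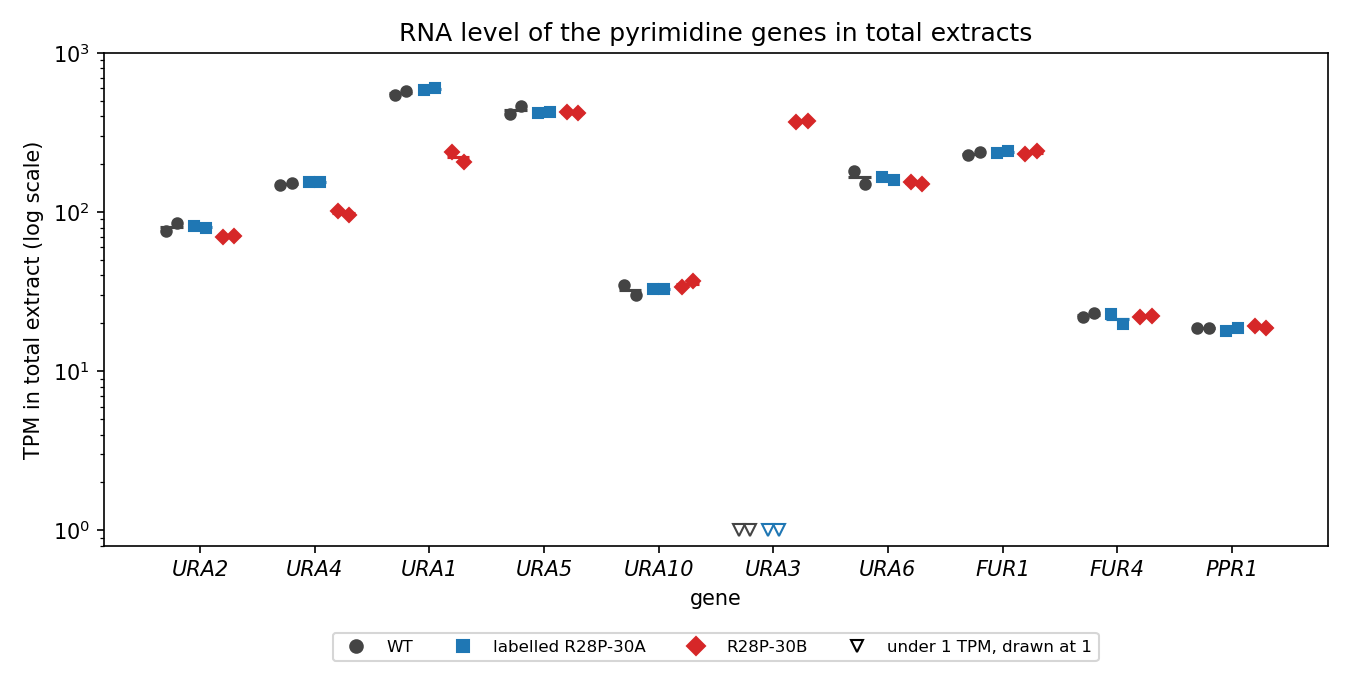
TPM of the 10 members in each total extract on a log scale, with 2 cultures per strain as points and their mean as a bar. The R28P-30B points for URA1 (239 and 206 TPM) and URA4 (101 and 96.3 TPM) lie below those of the other strains, and URA3 is above 1 TPM only in R28P-30B.

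Per coding length, the order of the members in WT was URA1, URA5, FUR1, URA6, URA4, URA2, URA10, FUR4 and PPR1, from 561 ± 24.0 TPM (SD, n = 2) for URA1 to 18.7 ± 0.116 TPM for PPR1. URA6 and URA4 were the only neighbours in that order whose ranges overlapped, at 151 to 181 TPM and 147 to 153 TPM. The R28P-30A-labelled libraries gave the same order. In R28P-30B, URA5 led at 421 ± 4.79 TPM, followed by URA3 and FUR1, and the ranges of FUR1 (231 to 242 TPM) and URA1 (206 to 239 TPM) overlapped. The minor isoenzyme gene URA10 stood at 30.3 to 36.9 TPM over the 6 extracts and URA5 at 413 to 463 TPM.

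In the R28P-30A-labelled libraries, no member's total RNA passed the threshold against WT, although both values of URA1 and of URA4 lay above both WT values. Of the 9 members tested, 0 passed an adjusted p of 0.05 (limma, Benjamini-Hochberg over 5686 genes), 0 had an unadjusted p under 0.05, and edgeR and DESeq2 on the recovered reads also called 0. Of all genes, 1.07% were called in this comparison. The differences ran from −0.08 (FUR4, 95% interval −0.27 to 0.11) to 0.08 (URA1, 95% interval −0.06 to 0.23) in log2. The interval for URA4 ran from −0.09 to 0.18. A difference of the size seen for URA1 or URA4 in R28P-30B lies outside these intervals.

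URA1 and URA4 were also lower in both ribosome fractions of R28P-30B. These fractions came from the same cultures as the total extracts, so they are no independent repeat of the values that chose the members. URA1 stood at 524 and 548 CPM in WT light fractions and 222 and 185 CPM in those of R28P-30B. In the heavy fractions it stood at 589 and 618 CPM in WT and 241 and 232 CPM in R28P-30B. R28P-30B thus held 39.6% of the WT mean in the total extract, 38.0% in the light and 39.2% in the heavy fraction, and no fraction overlapped. For URA4 these shares were 65.8%, 68.4% and 64.6%, again without overlap.

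**Figure D2:**
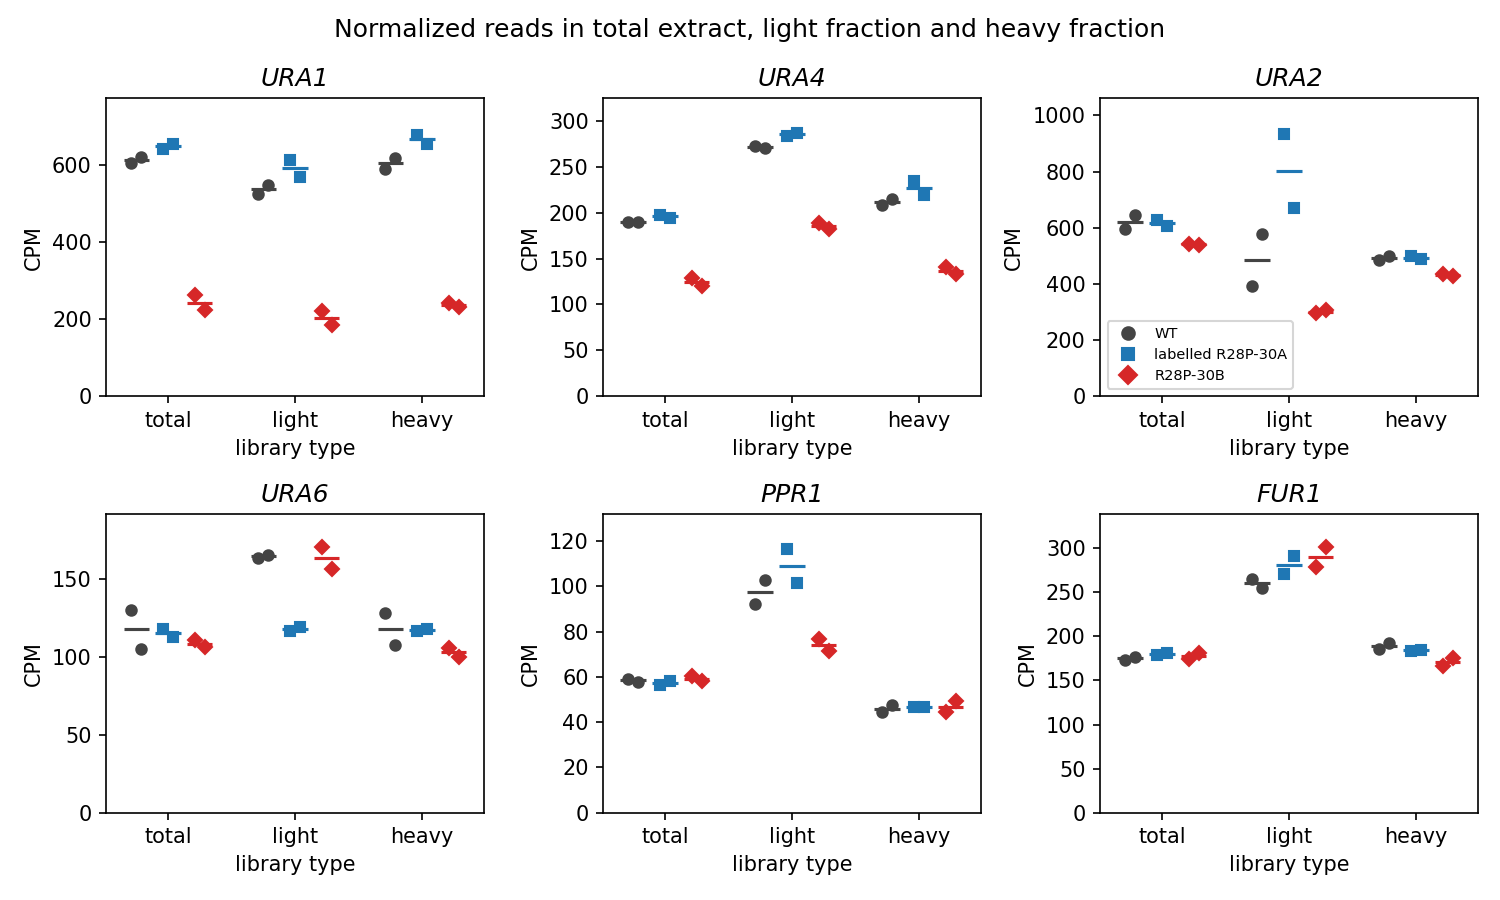
CPM of 6 members in total, light and heavy libraries, with 2 cultures per strain as points and their mean as a bar, each axis starting at 0. URA1 and URA4 are lower in R28P-30B in all 3 library types, whereas URA2 and PPR1 of R28P-30B lie further from WT in the light than in the heavy fraction, and URA6 of the R28P-30A-labelled libraries is below WT in the light fraction and overlaps it in the heavy.

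The translation index of a gene is its heavy CPM over its light CPM in one culture, the study's measure of how far an mRNA is loaded with ribosomes. URA5 and URA10, whose coding sequences share 473 of 672 aligned bases (70.4%), lay at opposite ends of this scale. The URA5 index was 2.59 and 2.38 in WT, 2.51 and 2.82 in the R28P-30A-labelled libraries, and 2.67 and 3.05 in R28P-30B. The URA10 index was 0.216 and 0.239, 0.237 and 0.234, and 0.220 and 0.212 in the same order. The URA5 index was 9.95 to 14.4 times the URA10 index within a culture, higher in 6 of 6 cultures. In WT, 96.5% of the 5664 genes tested lay below URA5 and 3.04% below URA10. None of the 50-base windows of either coding sequence occurs unchanged elsewhere in the reference. The placement of reads with mismatches was not examined.

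The other members lay between these. Mean WT indices were 1.13 for URA1, 1.05 for URA2, 0.781 for FUR4, 0.780 for URA4, 0.726 for FUR1, 0.717 for URA6 and 0.472 for PPR1, against a median of 0.860 over all genes tested. URA3 in R28P-30B had indices of 0.801 and 0.773, near that strain's median of 0.870. PPR1 lay low, with 17.5% of genes below it in WT and in the R28P-30A-labelled libraries and 34.1% in R28P-30B.

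**Figure D3:**
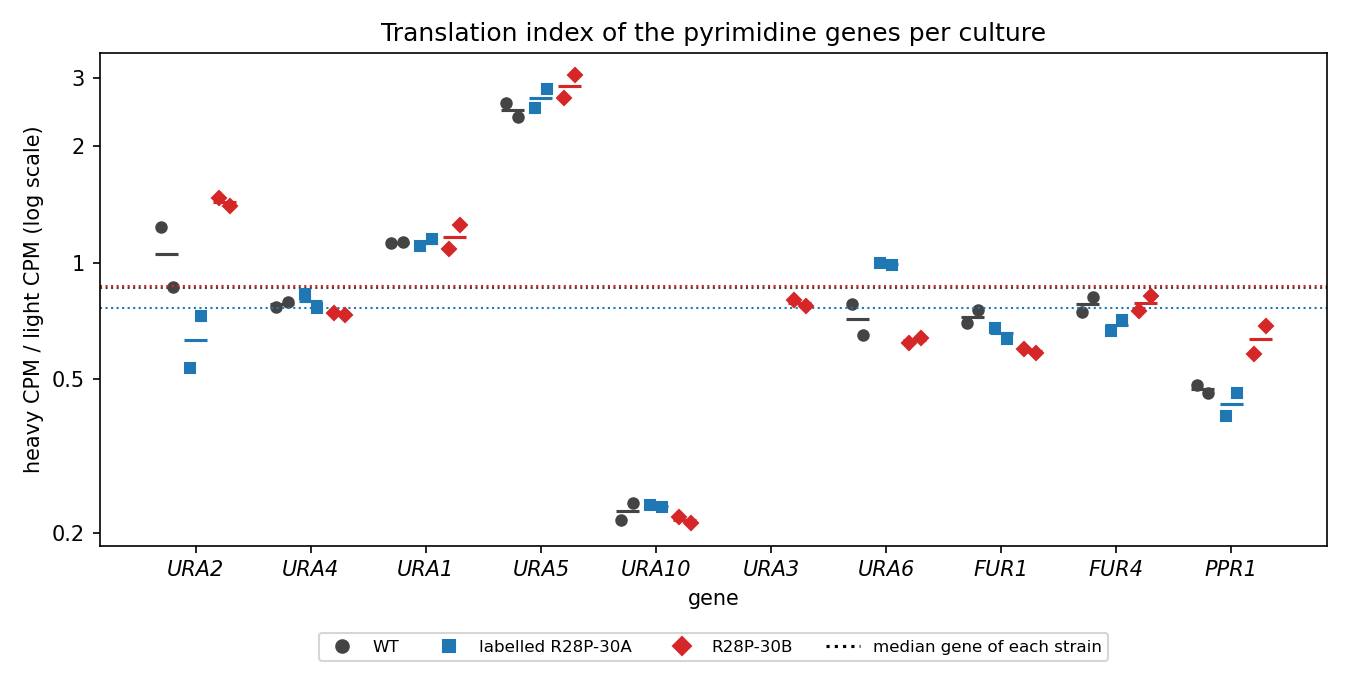
Translation index (heavy CPM over light CPM, log scale) of the members in each culture, with the mean as a bar and the median gene of each strain as a dotted line. URA5 lies above 2 and URA10 below 0.25 in all 6 cultures, and URA2 runs from 0.534 to 1.47 across strains.

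URA1 and URA4, the members furthest below WT in R28P-30B total extracts, showed no index difference past the threshold. URA2, which was lower there by less, had an index call and is described next. The URA1 index was 1.12 and 1.13 in WT and 1.09 and 1.25 in R28P-30B, which overlap. The log2 difference was 0.05 (95% interval −0.14 to 0.25, limma adjusted p = 0.715). For URA4 the index was 0.767 and 0.794 in WT and 0.742 and 0.731 in R28P-30B, a log2 difference of −0.08 (95% interval −0.27 to 0.10, limma adjusted p = 0.522). A p that misses the threshold does not show equality, and the intervals give the sizes that remain possible.

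URA2 had the widest change in index. Its index was 1.24 and 0.866 in WT, 0.534 and 0.728 in the R28P-30A-labelled libraries, and 1.47 and 1.40 in R28P-30B. The 3 strains did not overlap, although the WT cultures lay far apart. Against WT the log2 index difference was −0.73 in the R28P-30A-labelled libraries (95% interval −1.04 to −0.43, limma adjusted p = 0.00113) and 0.47 in R28P-30B (95% interval 0.16 to 0.77, limma adjusted p = 0.027). Between the plasmid strains it was 1.20 higher in R28P-30B (95% interval 0.90 to 1.51, limma adjusted p = 3.05e-06).

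The URA2 strains differed more in the light than in the heavy fraction. Its light CPM was 391 and 579 in WT, 934 and 671 in the R28P-30A-labelled libraries, and 297 and 307 in R28P-30B, with no overlap between strains. Its heavy CPM was 486 and 501, 498 and 488, and 436 and 429 in the same order. The heavy values of WT and of the R28P-30A-labelled libraries overlapped, and R28P-30B had 87.7% of the WT mean. URA2 has a coding length of 6645 nt, the longest of the members. Among the 480 genes tested with over 3000 nt, the median index difference was −0.55 (log2) in the R28P-30A-labelled libraries and 0.35 in R28P-30B against WT, and 0.89 between the plasmid strains. In these comparisons 88.5% of them were lower, 54.0% higher and 97.3% higher past the threshold, and the part of length in the URA2 result was not tested. The URA2 call in R28P-30B against WT was lost without WT culture 2 (0.21, adjusted p = 0.406) and without either R28P-30B culture (adjusted p = 0.129 and 0.101). It was also lost with DESeq2 (adjusted p = 0.278), with centring on the median gene of each culture (limma adjusted p = 0.0567) and with no trend in the variance (limma adjusted p = 0.142). The URA2 call in the R28P-30A-labelled libraries was lost with DESeq2 (−0.55, adjusted p = 0.184).

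URA6, the UMP kinase gene (chromosome XI, 392526 to 393140, minus strand), moved the other way. Its index was 0.785 and 0.650 in WT, 0.997 and 0.988 in the R28P-30A-labelled libraries, and 0.620 and 0.640 in R28P-30B. The R28P-30A-labelled libraries lay above both other strains, which did not overlap each other by a narrow margin. The index rose by 0.47 (log2) in them against WT (95% interval 0.26 to 0.69, limma adjusted p = 0.00205), the 70th highest of 5664 genes. It was 0.66 lower in R28P-30B than in them (log2 −0.66, 95% interval −0.87 to −0.44, limma adjusted p = 4e-05). Against WT the R28P-30B difference was −0.18 (95% interval −0.39 to 0.03, limma adjusted p = 0.201).

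URA6 light CPM was 163 and 166 in WT, 117 and 119 in the R28P-30A-labelled libraries, and 171 and 156 in R28P-30B. Heavy CPM was 128 and 108, 116 and 118, and 106 and 100 in the same order. The R28P-30A-labelled libraries lay below WT in the light fraction and overlapped it in the heavy, while R28P-30B overlapped WT in the light fraction and lay below it in the heavy. The coding length of URA6 is 615 nt, the shortest of the members. Among the 2239 genes tested of up to 1000 nt, the median index difference of the R28P-30A-labelled libraries from WT was −0.02, and 11.7% were higher past the threshold. In R28P-30B against the R28P-30A-labelled libraries the median of this class was −0.17, and 32.1% were lower past the threshold. URA6 was the 76th lowest of 5664 genes there, and the part of length was not tested.

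PPR1 had a higher index in R28P-30B while its total RNA kept to the WT level. Its index was 0.483 and 0.461 in WT, 0.403 and 0.459 in the R28P-30A-labelled libraries, and 0.581 and 0.688 in R28P-30B, which lay above both others. The rise was 0.42 (log2) against WT (95% interval 0.19 to 0.66, limma adjusted p = 0.0124) and 0.56 against the R28P-30A-labelled libraries (95% interval 0.32 to 0.79, limma adjusted p = 0.000549). PPR1 light CPM was 76.5 and 71.5 in R28P-30B against 92.1 and 103 in WT, while heavy CPM overlapped at 44.4 and 49.2 against 44.4 and 47.3. The call against WT was lost without R28P-30B culture 2 (adjusted p = 0.154) and without WT culture 2 (adjusted p = 0.0985), and with no trend in the variance (limma adjusted p = 0.0541). PPR1, with 2715 nt, is in the class of 1000 to 3000 nt, with 2945 genes tested. Of these, 14.2% were higher in R28P-30B than in WT past the threshold. Against the R28P-30A-labelled libraries 38.5% of this class were higher, and PPR1 was the 1036th highest of 5664 genes. The part of length was not tested.

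FUR1, the salvage enzyme gene, had a lower index in R28P-30B than in WT. It was 0.698 and 0.753 in WT, 0.679 and 0.634 in the R28P-30A-labelled libraries, and 0.597 and 0.584 in R28P-30B, and the strains did not overlap. The index fell by 0.30 on the log2 scale against WT (95% interval −0.49 to −0.11, limma adjusted p = 0.0243). The call was lost without either R28P-30B culture (adjusted p = 0.077 and 0.131) and without WT culture 2 (adjusted p = 0.21), and with no trend in the variance (limma adjusted p = 0.0687). The coding length of FUR1 is 651 nt, and 20.1% of genes of up to 1000 nt were lower in this comparison. FUR4, the uracil permease gene, had indices of 0.747 and 0.815 in WT and 0.751 and 0.822 in R28P-30B, a log2 difference of 0.01 (95% interval −0.23 to 0.25).

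Counted together, 2 of 9 members (URA6 higher, URA2 lower) passed the threshold for the index in the R28P-30A-labelled libraries against WT, where 30.8% of all genes did (5.56% higher and 25.3% lower). For R28P-30B the count against WT was 3 of 9 (URA2 and PPR1 higher, FUR1 lower), where 22.7% of all genes did (12.4% higher and 10.2% lower). Between the plasmid strains 3 of 9 passed (URA2 and PPR1 higher in R28P-30B, URA6 lower), where 46.1% of all genes did (30.7% higher and 15.4% lower). The members' shares, 22.2%, 33.3% and 33.3%, are below the shares of all genes in the first and last comparison and above it by about 1 gene in the other, so these counts are no result about the list. The median gene differed by −0.13 (log2) in the R28P-30A-labelled libraries against WT. Relative to the median gene of each culture, the URA2 and URA6 differences there were −0.57 and 0.64, and both kept their calls (limma adjusted p = 0.0197 and 0.00115). With that centring, URA4, URA10 and FUR1 were also called lower in R28P-30B than in the R28P-30A-labelled libraries, 6 of 9 members in all, and 3068 genes were called with 1201 higher and 1867 lower, against 1738 higher and 871 lower without it. In the R28P-30A-labelled libraries against WT the split was 862 higher and 607 lower with centring and 315 and 1432 without.

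**Figure D4:**
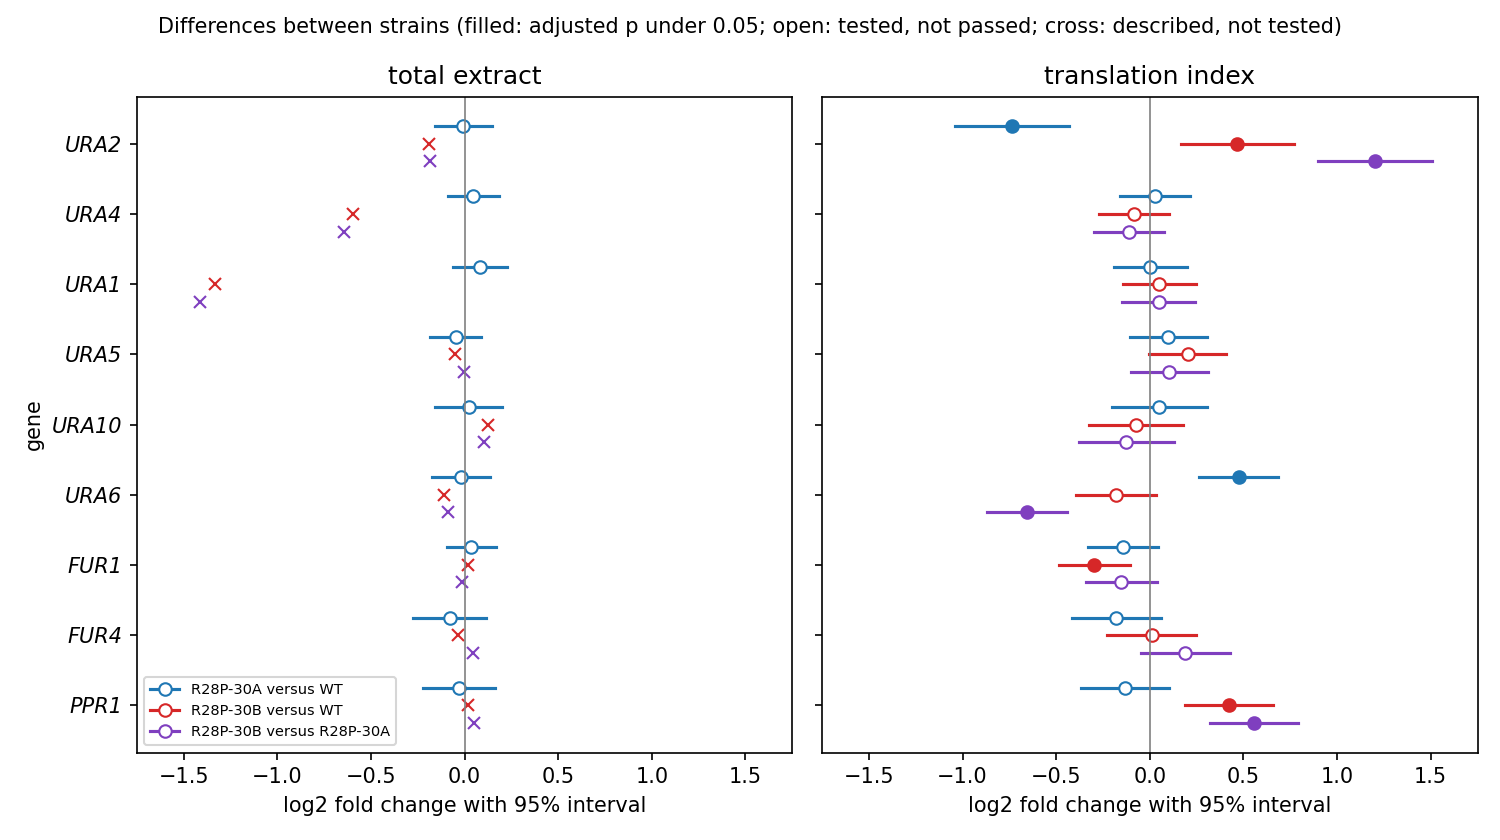
Log2 differences between strains for 9 members in total extracts (left) and in the translation index (right), with 95% intervals for tested values; crosses are values that chose the members and carry no test. URA1 (−1.33) and URA4 (−0.60) stand apart in total extracts of R28P-30B, and URA2, URA6, PPR1 and FUR1 in the index.

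The genes that feed and use the pathway were followed in a list of 15. The list was drawn up with earlier results of these data known. Its counts and p-values, here and for the index, are therefore no test of an excess of pyrimidine genes. Against WT, 9 of 15 passed the threshold in R28P-30B total extracts, 3 higher and 6 lower, where 24.2% of all genes passed (10.7% higher and 13.5% lower). Between the plasmid strains 6 of 15 passed in total extracts, where 12.2% of all genes did. The median of the list in R28P-30B against WT was −0.11 (log2), against −0.05 over all genes tested. CPA1, which encodes a subunit of the carbamoyl phosphate synthetase of arginine synthesis, stood at 205 and 227 TPM in WT, 221 and 256 TPM in the R28P-30A-labelled libraries, and 279 and 318 TPM in R28P-30B. R28P-30B lay above the other strains in both cultures, and its difference from WT was 0.47 (log2, limma adjusted p = 0.000154). In the R28P-30A-labelled libraries against WT, 0 of 15 passed with limma, edgeR or DESeq2, and 3 (PHM8 and YNK1 higher, DUT1 lower) had an unadjusted limma p under 0.05.

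PHM8, which encodes a nucleotide phosphatase, was higher in R28P-30B by 0.64 (limma adjusted p = 2.79e-06), and YNK1, the nucleoside diphosphate kinase gene, by 0.22 (limma adjusted p = 0.0149). FUI1, the uridine permease gene, was lower. It stood at 144 and 155 TPM in WT and 118 and 110.5 TPM in R28P-30B, and it fell by 0.39 on the log2 scale (limma adjusted p = 0.000182). CDD1 (cytidine deaminase) fell by 0.36, URA8 (the minor CTP synthase) by 0.31, CDC21 (thymidylate synthase) by 0.24, DUT1 (dUTPase) by 0.20 and FCY1 (cytosine deaminase) by 0.18. URA7, the major CTP synthase gene, stood at 184 and 188 TPM in WT and 184 and 186 TPM in R28P-30B. The calls for DUT1 and FCY1 were lost with edgeR, with DESeq2 and with centring on the median gene, that for CDC21 with DESeq2 (adjusted p = 0.0529) and with no filter on TPM (limma adjusted p = 0.0503), and all 3, with YNK1, with no trend in the variance (limma adjusted p from 0.0566 to 0.102). Without R28P-30B culture 1 the calls for URA8 (adjusted p = 0.0785), CDD1 (0.0699), YNK1 (0.156), CDC21 (0.0605), DUT1 (0.195) and FCY1 (0.314) were lost, and the last 4 were also lost without its culture 2 (adjusted p = 0.0515, 0.188, 0.105 and 0.128). Without WT culture 2 the calls for YNK1 (0.104), CDC21 (−0.14, 0.261) and FCY1 (0.0796) were lost, and without WT culture 1 those for DUT1 (0.133) and FCY1 (0.0993). CPA1, PHM8 and FUI1 kept their calls against WT in all 15 alternatives. Between the plasmid strains PHM8, FUI1 and CDD1 kept theirs in all 15, whereas CPA1 lost its call in 6, CDC21 in 2 and URA8 in 1.

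**Figure D5:**
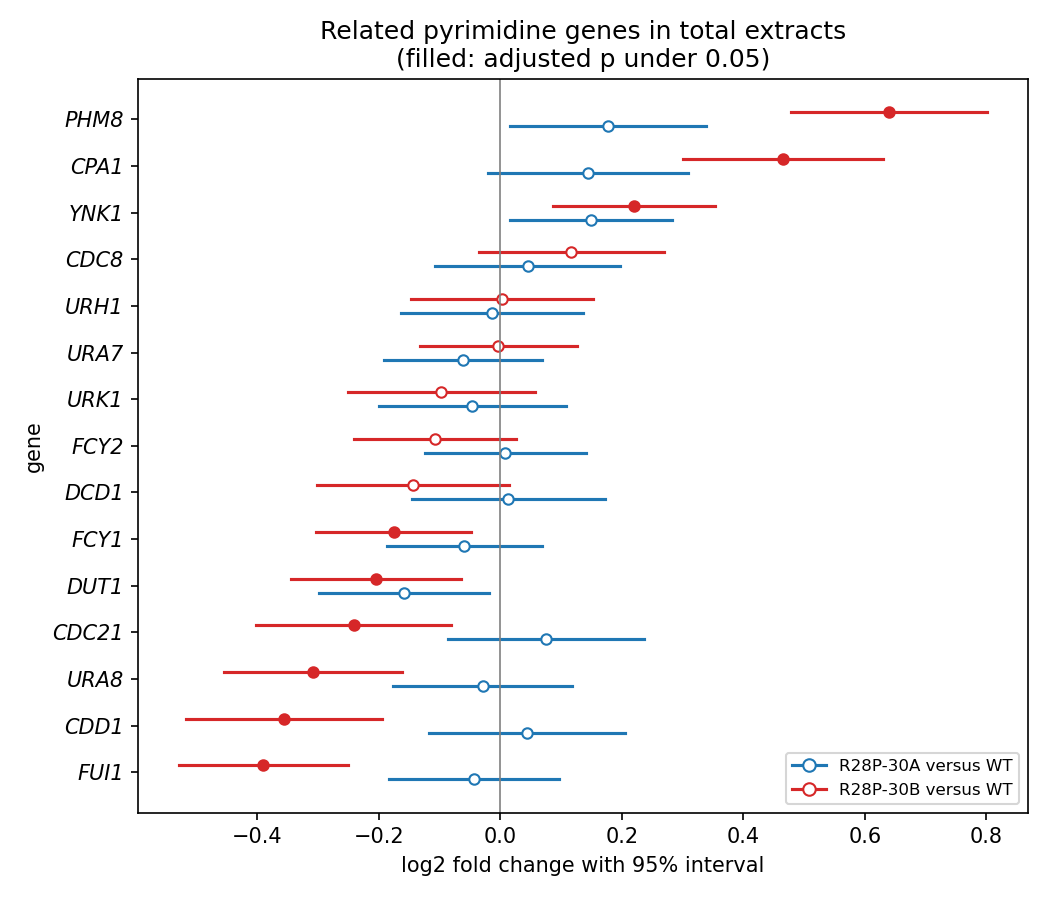
Log2 differences from WT in total extracts for the 15 related genes, with 95% intervals, for R28P-30B and the R28P-30A-labelled libraries. PHM8, CPA1 and YNK1 are higher in R28P-30B, 6 genes are lower, and 0 of 15 are called in the R28P-30A-labelled libraries.

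For the index, 2 of the 15 were called in the R28P-30A-labelled libraries against WT (DUT1 higher, PHM8 lower), 5 in R28P-30B against WT (URA8 higher, FCY1, CDD1, DUT1 and PHM8 lower) and 7 between the plasmid strains, 2 higher and 5 lower in R28P-30B. Of all genes, 30.8%, 22.7% and 46.1% were called in these comparisons, and the counts of the list are read against those shares. The 7 became 2 without R28P-30B culture 2 and 4 without R28P-30A culture 2, and with centring on the median gene 8 were called, all of them lower. PHM8 had indices of 0.556 and 0.513 in WT, 0.322 and 0.309 in the R28P-30A-labelled libraries, and 0.378 and 0.354 in R28P-30B. The log2 differences from WT were −0.76 and −0.55 (limma adjusted p = 3.56e-05 and 0.000637). Its level and its index thus differed from WT in opposite directions in R28P-30B. Both PHM8 index calls against WT held in all 15 alternatives. Without R28P-30B culture 2 or WT culture 2 the other 4 index calls in R28P-30B against WT were lost (adjusted p from 0.0569 to 0.215), CDD1 also without WT culture 1 (adjusted p = 0.136) and with DESeq2 (adjusted p = 0.0791), and URA8 also with no trend in the variance (limma adjusted p = 0.0595). The DUT1 call in the R28P-30A-labelled libraries was lost without their culture 2 (adjusted p = 0.0958) or either WT culture (0.076 and 0.0738).

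The genes most like URA1 were ranked by the root mean square difference of log2(CPM + 0.1), each gene centred on its own mean, with URA3 left out. Over the 6 total extracts the nearest of 5684 genes were MDH2 (cytosolic malate dehydrogenase, 0.095), ICS2 (0.142), WSC4 (a cell wall stress sensor family member, 0.148), HSP26 (a small heat shock protein, 0.210) and PRM1 (a membrane protein of mating cell fusion, 0.218). Their WT total CPM was 1.89-fold (HSP26) to 2.68-fold (PRM1) that of R28P-30B. The URA1 profile over these extracts is mainly its lower level in R28P-30B, so genes ranked near it are lower there by construction. URA4 was the nearest member, 39th at 0.357, and FUI1 the nearest of the related genes, 152nd at 0.479. Over all 18 libraries the nearest were HMS2 (0.346), PNS1 (0.350), LEU1 (isopropylmalate isomerase, 0.366), TKL2 (minor transketolase, 0.368) and PHD1 (0.374), with URA4 62nd at 0.493. The ranking describes these libraries, in which cultures of a strain share their genotype.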

How the data were processed

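Libraries of poly(A) RNA were directional. The authors aligned them to R64 with STAR, let a read count at every valid position, and counted genes with featureCounts (versions not given in the sources used here). The CPM that the authors deposited for 18 libraries came out whole, within 0.05 of a read, for 100% of values, and reads were recovered from it. The authors' deposited TPM, for 16 libraries, was not used, and TPM was recomputed from recovered reads and coding length (6013 genes). Samples were grouped by strain, fraction and number in their titles, and the source names tie the fractions of a culture together. The members and lists were chosen with earlier results of these data known.

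The log2 ratio of heavy to light CPM, each plus 0.1, was taken per culture for 5664 genes (above 1 TPM in the mean of WT total extracts, and never at 0 CPM in the 12 fraction libraries). Total extracts were compared on log2(TPM + 1) for 5686 genes (above 1 TPM in the mean of 6). Both were fitted with limma 3.58.1 in R 4.3.3, with a trend in the variance and 3 strains sharing the spread. The threshold was 0.05 for a p adjusted by Benjamini and Hochberg over all genes tested. The limma p-values rest on the spread between cultures of a strain, pooled over 3 strains and drawn towards that of genes of similar level. They thus rest partly on other genes. With 2 cultures a strain, an exact permutation test could not go below 0.33. Named genes were the 10 members, 15 related genes where called (1 more is not reported here), the strain checks and the 5 genes nearest URA1. Alternatives were other pseudocounts, no filter on low values, centring, a replicate block, 2-strain fits, no trend, edgeR 4.0.16 and DESeq2 1.42.0 on recovered reads, and leaving out each culture. Reads were also simulated for R28P-30B against WT, with the same fixed spread for all genes and no further difference between cultures or fractions. With 200 of 5678 genes changed by log2 1, the index fit recovered 99% and called 0.183% of the others. This checked the fitting steps. It does not give the reliability of calls in these data, where many differences are smaller and some cultures lie further apart. No member overlaps another annotated gene. Sequences and coordinates came from RefSeq's R64 assembly, read with Python 3.11.15 and Biopython 1.88.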

Additional observations from a re-analysis of the deposited data

Results flagged for a closer look

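With 2 cultures in a group, no single library could be examined as far from the others of its group. The results below stand here because a strain's difference from WT was not the same in the heavy as in the light fraction, by the limma test of the translation index (adjusted p under 0.05); values are log2 differences in the index, 2 cultures per strain. In the R28P-30A-labelled libraries they were −0.73 for URA2, 0.47 for URA6, 0.31 for DUT1 and −0.76 for PHM8. In R28P-30B they were 0.47 for URA2, 0.42 for PPR1, −0.30 for FUR1, 0.40 for URA8, −0.50 for CDD1, −0.39 for FCY1, −0.35 for DUT1 and −0.55 for PHM8.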

How the results depend on the processing

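No named gene past the threshold changed direction in any alternative. Of 9 members, URA6 alone (1) kept its index call in the R28P-30A-labelled libraries against WT with DESeq2, which called 1164 genes against 1747. Between the plasmid strains DESeq2 called 5 members, and edgeR and centring on the median gene 6 each, against 3. With no trend in the variance, 0 members and 716 genes were called for the index in R28P-30B against WT, against 3 and 1283; 444 genes, against 695, in total extracts between the plasmid strains; and 3, against 61, in total extracts labelled R28P-30A against WT. For the last, edgeR called 23 genes, centring 1, no filter on TPM 6 and the fit of the 2 strains 141. In total extracts of R28P-30B against WT centring gave 828 higher and 678 lower genes, against 609 and 768. Leaving out each culture in turn gave 1045 to 1689 genes and 2 members for the index in the R28P-30A-labelled libraries against WT, 384 to 1474 genes and 0 to 3 members in R28P-30B against WT, and 1959 to 2580 genes and 3 members between the plasmid strains. In total extracts it gave 1 to 223 genes and 0 members, 735 to 1524 genes, and 358 to 676 genes in the same order. Where this left 1 culture in a strain, it was assumed to vary like the others. With the replicate number as a block, 126 genes (labelled R28P-30A against WT), 1898 genes (R28P-30B against WT, against 1377) and 1074 genes (between the plasmid strains) were called in total extracts, and no call of a tested member changed. The labels name no batch shared by cultures of one number, and differences between replicates correlated across genes at −0.17 to 0.15 for the index and at 0.12 to 0.16 for total extracts. With 2 numbers this was not taken as pairing, and a shared replicate effect in total extracts was not tested further. Each member had 263 reads or more in every library, URA3 apart, and each strain had 2 cultures.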
